A study of Mus musculus with 13 samples.

Results

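Granule neurons are the main excitatory cells of the dentate gyrus, and the nuclei described here were those of them in which 4 sparse granule-cell transcripts gave no count. Of 105427 retained nuclear barcodes, 13934 (13.2%) met the rule. It asked for at least 1 UMI (a counted RNA molecule) of Prox1, for at least 3 of Prox1, C1ql2, Glis3, Trpc6, Stxbp6 and Plk5, for a sum of these 6 genes of at least 8 per 10000 UMIs, for fewer than 2 UMIs of Gad1 and Gad2, and for fewer than 2 UMIs of Trhr, Lgr6 and Gmnc, which mark a separate ventral-type class. Within the 30972 granule nuclei that passed these steps, the members were then chosen by a summed count of 0 for Dsp, Lct, Npnt and Stra6, which held for 45.0%. The other 17038 granule nuclei, with at least 1 UMI of the 4 genes, are the comparison class.

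Granule neurons receive input from the entorhinal cortex and send mossy fibres to hilar mossy cells and to CA3. They are among the few neurons born in the adult rodent brain, and Prox1 is the transcription factor that sets and keeps their identity. Dsp codes for desmoplakin, a linker of desmosomes to intermediate filaments, Lct for lactase, Npnt for the matrix protein nephronectin, and Stra6 for a receptor that takes up vitamin A.

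The data were UMI counts per gene in nuclei of whole frozen hippocampus from 13 female mice labelled C3HB6F1, with 1 droplet library per mouse. Young mice were 5 months old and fed ad libitum (n = 3), and old mice fed ad libitum were 24 months old (n = 3, numbered 1, 2 and 4). Old mice under acute dietary restriction had been restricted from 20 months of age (n = 3), and those under long-term restriction from 5 months (n = 4), both taken at 24 months. Deposited UMIs per library ran from 38546292 to 80538090 (median 53363502), of which the members held 2110701 to 12876951.

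Several libraries stood apart before any group was compared. The 4 libraries numbered 1 differed from the others in 1968 of 14795 genes when number 1 was added as a term, 679 higher and 1289 lower. Old ad libitum replicate 1 held only 202 member nuclei, at a median of 10024 UMIs, whereas young replicate 2 held 1567 at a median of 3982. The members' median UMIs did not overlap between young mice (3982, 5328.5 and 6031) and old ad libitum mice (6447, 7367 and 10024), so depth moved with age. Of the members, 1366 (9.80%) were marked by a doublet caller and kept, and 1358 barcode sequences occurred in at least 2 libraries, 34 of them in 2 member sets.

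The granule label was checked on genes outside the rule. Of 9 further granule markers, Rfx3 (a ciliary transcription factor) was detected in 97.6% of members in the median library, Synpr (synaptoporin, a mossy fibre vesicle protein) in 93.1%, Sema5a in 91.5% and Maml2 in 95.8%. The same genes were detected in 42.7%, 15.8%, 17.8% and 21.4% of 5683 oligodendrocyte-type nuclei, which should lack them but were shallower (median over library medians 1907 UMIs against 6300 in the members). C1ql3, a secreted synaptic organizer, was detected in 64.8% against 8.30%, the calcium buffer calbindin (Calb1) in 33.1% against 2.49% and Pdzd2 in 73.1% against 5.78%. Dock10 did not separate them (97.6% against 96.7%), and Tdo2 was detected in only 2.33% of members against 0.442%. The summed level of the 9 markers was 5221 to 6132 CPM (counts scaled to a common total per library) in the members. It was 5756 to 7462 CPM in the comparison class and 2801 to 4108 CPM in oligodendrocyte-type nuclei. Members and comparison class were also compared within each mouse at a common depth per nucleus (median log2 difference over mice in brackets). Tdo2 (-1.33), Calb1 (-0.54), Rfx3 (-0.36), Pdzd2 (-0.35), Maml2 (-0.28) and Dock10 (-0.10) were lower in the members in all 13 mice. C1ql3 (-0.21) and Sema5a (-0.16) were higher in the members in only 1 mouse each, and Synpr (-0.01) in 6. Of 5 mossy cell genes, Drd2, Calb2, Csf2rb2 and Glipr1 were detected in 0.1%, 0.367%, 0.047% and 1.55% of members, and Ajap1 in 25.9% (2.21% of oligodendrocyte-type nuclei). Thus, in the median library, 7 of the 9 markers the rule did not use separated the members from oligodendrocyte-type nuclei. So did Ajap1 and, among genes listed for CA3, Cpne4 (79.3% against 5.69%) and Grik4 (85.9% against 21.8%). With this comparator the check could not tell granule neurons from other neurons. The detected shares are medians over libraries, so they do not show that the label held in each library. In the members of old ad libitum replicate 1, the 5 astrocyte genes summed to 1192 CPM, against a median of 635 over libraries. Of its 202 members only 4 were marked as doublets. This library enters the ageing contrast and both contrasts of restriction with old ad libitum mice. The absence of Dsp and Lct was an absence of counts at the depth read.

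Around the limits of the rule the classes ran into each other. The 4 genes gave 0 UMIs in 13934 granule nuclei, 1 UMI in 7186, 2 in 4329, 3 in 2561 and at least 4 in 2962. A single gene of the 4 was detected in few granule nuclei, with medians over libraries of 7.87% for Dsp, 8.68% for Lct, 12.2% for Npnt and 14.9% for Stra6. At the limit on the granule genes, 79 nuclei that met all other steps had 8 to 9 per 10000 UMIs and were kept, and 49 had 7 to 8 and were not. These values chose the members and were not tested.

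The share of granule nuclei without the 4 transcripts varied between libraries within every group. Young mice had 35.9%, 54.0% and 39.9%, and old mice fed ad libitum had 32.3%, 42.0% and 46.5%. Mice restricted acutely had 48.4%, 38.8% and 53.8%, and those restricted long term had 39.2%, 47.2%, 48.8% and 47.9%. The highest share belonged to the shallowest library (young replicate 2) and the lowest to the deepest (old ad libitum replicate 1, 95% Wilson interval 28.7% to 36.0%, counting error only). The libraries between these did not line up by depth: young replicate 3, next in shallowness, had 39.9% and long-term replicate 3, next in depth at a median of 8224 UMIs, had 48.8%. When each nucleus was thinned to 3000 UMIs, which left out 887 shallower granule nuclei, 355 of them from young replicate 2, the shares rose to between 57.7% and 71.4%. At that depth a Poisson count with each library's mean would leave 53.9% to 67.2% of nuclei at 0, and the variance of the 4-gene count was 1.22 to 1.48 times its mean. The observed share lay above that value in every library, by a few points.

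None of the 4 contrasts between groups in this share passed a test. The mean was 43.3% ± 9.52 (SD, n = 3) in young and 40.3% ± 7.28 (n = 3) in old ad libitum mice, a difference of -3.01 points (exact two-sided permutation p = 0.7, smallest possible 0.1). Long-term restriction, at 45.8% ± 4.43 (n = 4), lay 5.53 points above old ad libitum mice (exact permutation p = 0.343, smallest possible 0.029) and acute restriction, at 47.0% ± 7.60 (n = 3), lay 6.78 points above them (exact permutation p = 0.4). Long-term and acute restriction differed by -1.25 points (exact permutation p = 0.8), and all 4 p-values were 0.8 after Benjamini-Hochberg adjustment. At 3000 UMIs the ageing difference was +4.84 points (exact permutation p = 0.2), opposite in sign to that at full depth, and the restriction differences were smaller there, at 2.02 points for long-term and 2.40 for acute restriction. At full depth without old ad libitum replicate 1, the deepest library, these 2 differences were 1.53 and 2.78 points and that of ageing was 0.99, and without young replicate 2 the ageing difference was 2.37. At 3000 UMIs the 10 old mice of all diets lay 6.37 points above the 3 young mice (exact permutation p = 0.042, unadjusted), against 1.24 points at full depth (exact permutation p = 0.832). Of the 887 nuclei left out by thinning, 355 came from young replicate 2 and 104 from acute replicate 3, and their part in this was not tested. In a share of nuclei, fewer nuclei of a kind and fewer transcripts per nucleus cannot be told apart.

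**Figure D1:**
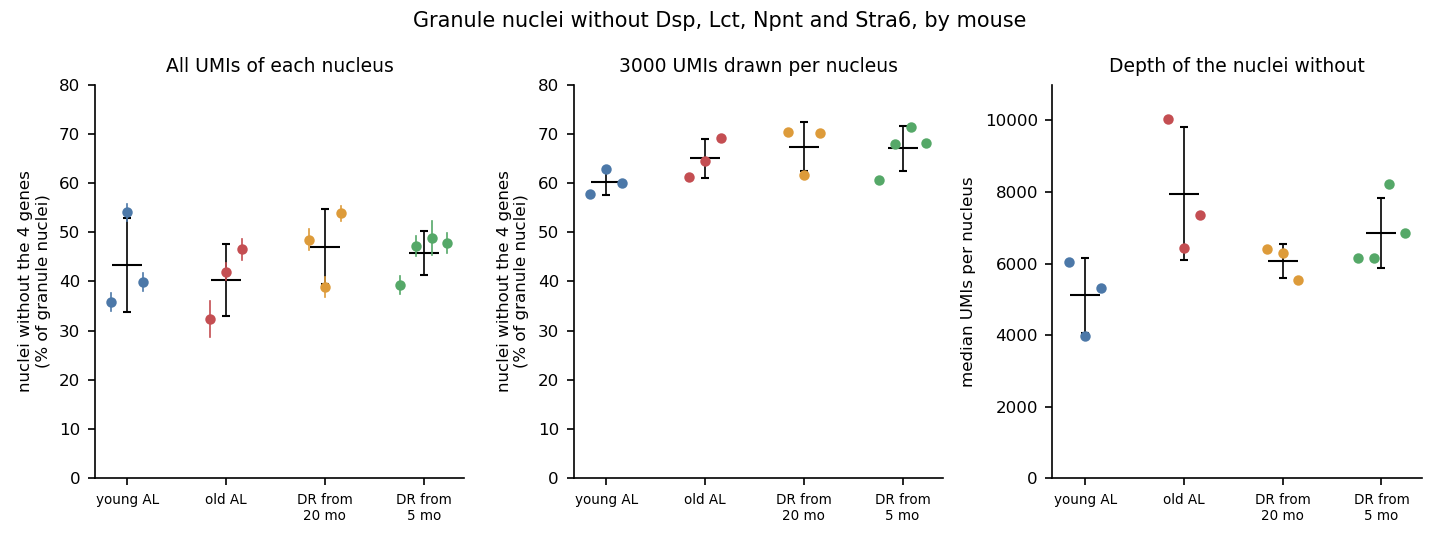
Share of granule nuclei without Dsp, Lct, Npnt and Stra6 UMIs in each mouse, at all UMIs with 95% Wilson intervals and at 3000 UMIs per nucleus (vertical axes in percent), and the members' median UMIs. Points are mice, and black bars are group means ± SD. Shares ran from 32.3% to 54.0% at full depth and from 57.7% to 71.4% at 3000 UMIs, with overlapping groups in the first panel.

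Few members carried genes of immature neurons together. A nucleus was counted as carrying the immature program when at least 3 of 8 genes (among them Dcx, doublecortin, and the transcription factors Sox11, Sox4 and Neurod1) were detected at 3000 UMIs. This held for 2 of 13210 members, 1 in young replicate 2 and 1 in old ad libitum replicate 4, and for 4 of 16875 nuclei of the comparison class. With nuclei marked as doublets left out, no member was counted. The mean share differed between old and young mice by 0.0106 points (exact two-sided permutation p = 1.0). With 1 counted nucleus in each of these groups the test could not have given a small p, so it decides nothing about age. In the libraries with none, the Wilson bound still allowed 0.187% to 1.88% of nuclei. Singly, Dcx was detected in 12.9% of members and Sox11 in 17.9%, against 3.32% and 1.57% in oligodendrocyte-type nuclei, which were shallower. Scaled to CPM, Dcx had a median of 24.4 in members and 20.2 in oligodendrocyte-type nuclei, and Sox11 one of 31.0 and 7.59. Igfbpl1, a marker of newborn neurons, was at 0 to 0.748 CPM in members.

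Genes other than the 4 that defined the split also differed between the members and the comparison class. At 3000 UMIs per nucleus, 509 of 11855 genes were higher in the members in all 13 mice and 450 were lower in all 13, while the median difference over all genes was 0.039 on the log2 scale. The same nuclei set the classes, so these differences are a description and carry no test. Pappa, a protease that frees insulin-like growth factors from their binding proteins, was 2.68 higher on the log2 scale (median over mice, range 1.19 to 4.45), and Pcsk1, a prohormone convertase, 2.35 higher (0.89 to 2.92). Adamts18, a secreted metalloprotease, was 2.10 higher (1.01 to 3.09), the cadherin Cdh23 2.49 higher (0.79 to 4.48) and the matrix protein Smoc1 2.06 higher. Plcb4 (phospholipase C beta 4), Cdh4 (R-cadherin), Tnfaip8l3, Ptprm (a receptor tyrosine phosphatase) and Ankrd55 followed at 1.86, 1.74, 1.72, 1.71 and 1.64.

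Among further genes on the same side, Sema3a, a secreted axon repellent, was 1.64 higher, the sorting receptors Sorcs3 and Sorcs1 were 1.62 and 1.61 higher, and the activity-regulated genes Nptx2 and Nr4a3 were 1.54 and 1.39 higher. Among the gene lists by role, Penk (proenkephalin, 1.39), Bdnf (brain-derived neurotrophic factor, 0.91), Sema3e (1.19), Nrxn3 (0.79), Adcy8 (0.81) and Grm8 (0.58) were higher in all 13 mice. So were Nr2f2 (1.27), Grp (1.09) and Resp18 (0.95), listed as ventral granule genes, and also Gsg1l (0.51) and Spata13 (0.27), listed as dorsal ones, so the position lists did not point one way. Sox11 was 0.49 higher. The genes of this paragraph lie outside the rule for named genes and were chosen after their values were seen.

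Lower in the members was Moxd1, a monooxygenase of the dopamine beta-hydroxylase family, with a difference of -1.77 (range -2.86 to -1.12), and Itga7, an integrin subunit, had a difference of -1.45. Ror1, a receptor for Wnt5a, had -1.35, the proteoglycan Ogn -1.33, the tryptophan-degrading enzyme Tdo2 -1.33 and fibrillin 1 (Fbn1) -1.29. Wnt9a, Cacng5 (an AMPA receptor auxiliary subunit), Cotl1 and Il16 had -1.29, -1.27, -1.22 and -1.21. From the lists, Kcnh5 (-0.89), Itpr1 (the endoplasmic calcium release channel, -0.80), Nr3c2 (the mineralocorticoid receptor, -0.59), Cacna1h (-0.57), Calb1 (-0.54), Camk2b (-0.42) and Camk2a (-0.41) were lower in all 13 mice, again chosen after their values were seen. In Ror1 the young mice had the differences nearest to 0, as they did in Cotl1, Il16, Ryr1 and Trpc5. Ror1 differed by -0.80, -0.54 and -0.63 in young mice and by -0.97 to -1.72 in old mice of all diets. This pattern was picked out after the values were seen, and its share over all genes was not counted.

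**Figure D2:**
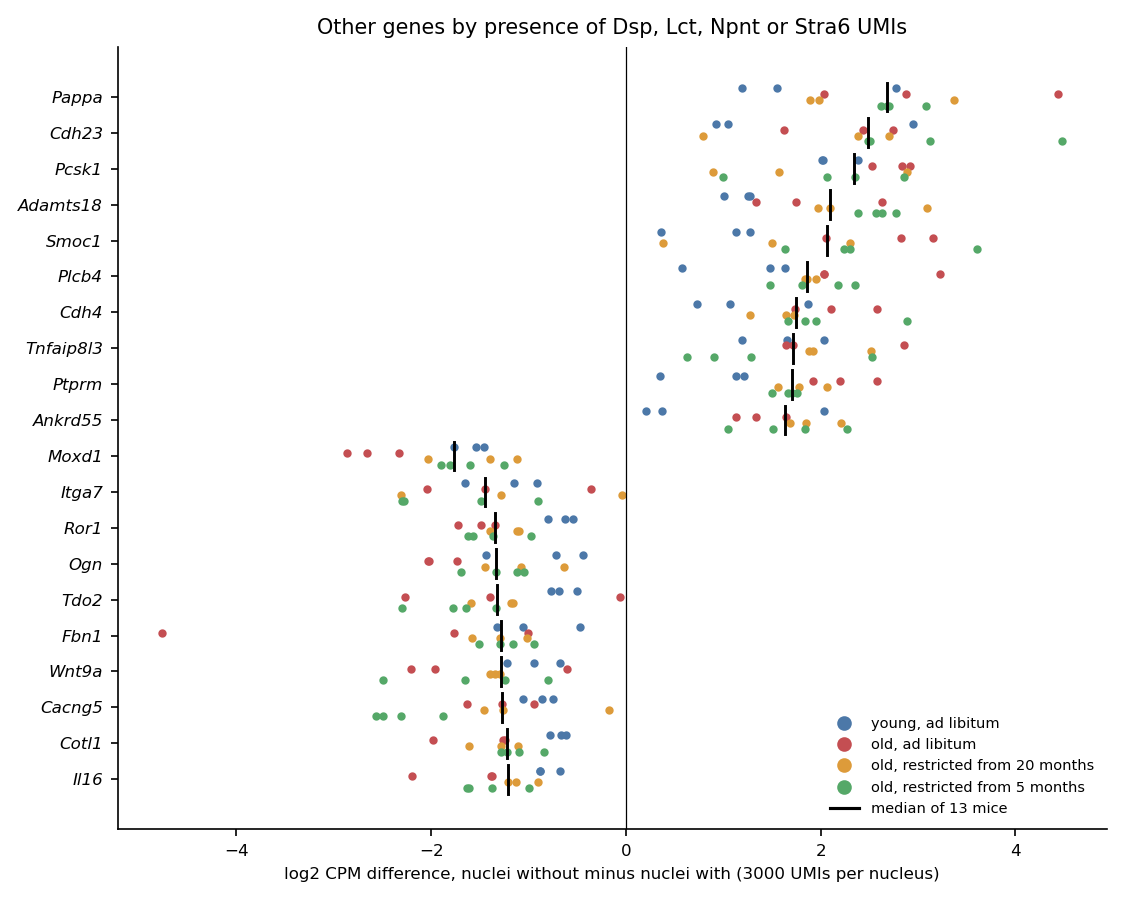
Difference in log2 CPM at 3000 UMIs per nucleus between granule nuclei without and with Dsp, Lct, Npnt or Stra6 UMIs (horizontal axis) for the 10 highest and 10 lowest named genes. Each point is a mouse and black bars are medians over 13 mice. Pappa has a median of 2.68 and Moxd1 one of -1.77, and each of the 20 genes has the same sign in all 13 mice.

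The members were not uniform. At 3000 UMIs per nucleus, the median gene had a variance among members of 1.04 times its mean over 6845 genes with a mean of at least 0.05 UMIs, and 112 genes exceeded 2. The highest were Gpc5, a glypican (18.0, library range 5.07 to 34.3), Malat1, a nuclear non-coding RNA (15.7), and Dpp10, a potassium channel partner (11.5). Gpc5 was detected in only 9.95% of members and Dpp10 in 16.1%, so their variance sat in few nuclei. Nrxn3, by contrast, was detected in 94.5% of members and still varied 7.96 times its mean, and Tenm2 (5.08) was detected in 99.5%. Sgcz (4.55), Nrg1 (4.01) and Sorcs3 (3.90) also varied, and were among the genes higher in the members than in the comparison class. Slc1a2, an astrocyte glutamate transporter, was at 6.23. The others of the 15 highest were Pde4b (7.07, detected in 10.6%), Ntm (5.97, 25.0%), Galntl6 (5.72, 15.8%), Rgs20 (4.97, 2.95%) and Npas3 (4.83, 21.9%). Tshz2 (4.75, 3.92%), Nxph1 (4.71, 2.19%), Mgat4c (4.64, 7.81%) and Luzp2 (4.58, 8.33%) completed them. Nuclei marked as doublets were included. Whether these counts came from granule neurons or from other cells was not tested. Nrxn3 was detected in 80.1% of members in its lowest library, Tenm2 in 83.1% and Lrrtm4 in 82.1% (median 99.6%). In their highest library Rgs20 reached 20.9%, Mertk 20.4% (median 2.19%), Plpp3 23.4% (3.17%) and Sox6 21.4% (3.08%). These extremes correspond to whole counts out of 201, the number of members of old ad libitum replicate 1 at this depth. Sgcz, Nrg1, Sorcs3, Lrrtm4, Mertk, Plpp3 and Sox6 lie outside the 15 most variable genes and were chosen after their values were seen. Genes listed as markers of other cells were counted in the members too. The 6 oligodendrocyte genes summed to 275 to 818 CPM (7785 to 13430 in oligodendrocyte-type nuclei) and 5 endothelial genes to 3.26 to 12.8 CPM. The 5 oligodendrocyte precursor genes summed to 647 to 860 CPM, of which Tnr alone gave 639 to 847, the 5 astrocyte genes to 462 to 1192, with Slc4a4 at 363 to 619, and the 5 CA3 genes to 633 to 1159, with Grik4 at 276 to 574 and Cpne4 at 271 to 444.

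Expression in the members differed between old and young mice fed ad libitum. Counts were summed per mouse over the members and fitted with edgeR (quasi-likelihood test, all 13 mice, Benjamini-Hochberg adjustment over 14795 genes). Between old and young ad libitum mice, 257 genes (1.74%) passed an adjusted p of 0.05, 188 (1.27%) with a higher and 69 (0.466%) with a lower level in old mice. The values of the 2 groups did not overlap in any of the 257, compared with 25.6% of all genes tested. The median change among them was 0.74 on the log2 scale in either direction, 67 exceeded 1, and the median over all genes was -0.02. The comparison class gave 246 genes in the same test, 175 higher and 71 lower.

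This count depended on the libraries and on depth. It was 1070 in DESeq2 (642 higher, 428 lower), 1990 with a term for number 1 (798 higher, 1192 lower) and 1883 without the 4 libraries numbered 1 (594 higher, 1289 lower), and leaving out single libraries gave 10 (young replicate 2), 147 (young replicate 3), 925 (young replicate 1), 83, 21 and 31 (old ad libitum replicates 1, 2 and 4), 151 (acute replicate 3), 533 and 128 (long-term replicates 3 and 4). With the members' median UMIs as a covariate 2 genes passed (Camk2d and Grm8), all 257 kept their direction and changes shrank to 0.75 of their size in the median. At 3000 UMIs per nucleus 191 genes passed, 123 of them among the 257. In that fit the members were set again from the thinned counts, which brought in nuclei of the comparison class. Change with age also moved with gene length: Spearman's rho across 14785 genes (not independent replicates) was 0.453, and the median genomic span was 163 kb for genes called higher, 16.5 kb for those called lower, against 27.0 kb over all genes tested. With the trend on length removed, 61 genes passed, 29 higher and 32 lower, 48 of them among the 257. The part of length and depth in the change with age was not tested further.

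The smallest adjusted p among the rising genes belonged to a kinase subunit and a glutamate receptor. Camk2d, the delta subunit of calcium/calmodulin-dependent kinase II (chromosome 3, 126596302 to 126846326, plus strand, GRCm38), stood at 5.71, 5.65 and 5.45 log2 CPM in young mice and at 7.10, 7.07 and 6.97 in old ad libitum mice. The groups were far apart relative to their spread, with a log2 change of 1.45 (SE 0.11, adjusted p = 4.5e-05 in edgeR). Grm8, a presynaptic metabotropic glutamate receptor of group III (chromosome 6, 27275119 to 28135178, minus strand), stood at 6.63, 6.52 and 6.33 in young and 7.93, 7.93 and 8.21 in old mice, a change of 1.54 (SE 0.13, adjusted p = 4.5e-05). Both rose in the comparison class too, by 1.45 and 1.57.

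Next in adjusted p came Ank1, an ankyrin that ties membrane proteins to spectrin, at 3.98, 3.92 and 3.79 in young and 5.39, 5.25 and 5.12 in old mice (log2 change 1.37, SE 0.14, adjusted p = 0.0003). Cobl, an actin nucleator known for shaping dendrites, was at 4.92, 4.86 and 4.80 against 6.27, 6.21 and 6.39 (1.44, SE 0.15). The sorting receptor Sorcs3 was at 7.64, 7.15 and 7.16 against 8.85, 8.68 and 8.57 (1.37, SE 0.15), and its relative Sorcs1 at 5.50, 4.74 and 5.48 against 6.84, 7.17 and 6.81 (1.68, SE 0.22, adjusted p = 0.0069). In each of these genes every old ad libitum mouse lay above every young one, which was a condition for naming a gene. In the comparison class Sorcs1 changed by 0.92 (adjusted p = 0.056) and Sorcs3 by 0.93, and neither difference between classes passed the interaction test (adjusted p = 0.542 and 0.116).

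Nrg1, the ligand neuregulin 1, was at 10.12, 9.59 and 9.83 in young and 11.00, 11.21 and 11.26 in old mice (1.29, SE 0.16, adjusted p = 0.0019). The presynaptic adhesion molecule Nrxn3 was at 10.85, 10.27 and 10.78 against 11.73, 11.89 and 11.79 (1.15, SE 0.15, adjusted p = 0.0031). These are long genes, spanning 1069 kb and 1612 kb. Tmem132d changed by 1.76 (SE 0.23), Zfp804b by 1.13 (SE 0.16), the cell cycle kinase Cdk6 by 0.85 (SE 0.11) and the protocadherin Pcdh7 by 0.84 (SE 0.12), with adjusted p between 0.0034 and 0.0069. With the length trend removed, 11 of these 12 rising genes still passed, and Pcdh7 did not (adjusted p = 0.064). How reads in overlapping genes were counted, and whether by strand, is not given in the sources used here. Pcdh7 overlaps 14 annotated genes on its own strand, Camk2d 7, Nrxn3 and Zfp804b 3 each, and Grm8, Ank1 and Tmem132d 2 each, and all 12 overlap at least 1 on the opposite strand, so their counts are uncertain to that extent.

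The restricted mice, of the same age as the old ad libitum mice, did not return to young levels in these genes. In all 12 the 7 restricted mice lay above the 3 young mice, which are the mice the genes were chosen against. The same held for 158 of the 188 genes called higher (84.0%) and for 1092 of all 14795 genes tested (7.4%). Camk2d stood at 7.17, 7.11 and 6.94 under acute and 6.90, 6.73, 6.88 and 7.10 under long-term restriction. Grm8 stood at 7.92, 7.66 and 7.94 and at 8.0, 7.77, 8.07 and 8.06. Ank1 lay below all 3 old ad libitum mice in each acute mouse (4.70, 4.67 and 4.80) and in 2 of 4 long-term mice (4.77, 4.91, 5.18 and 5.13), without passing the test.

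The genes that fell included a neurotrophic co-receptor, a tryptophan-degrading enzyme and an autophagy protein. Gfra2, the co-receptor for neurturin (chromosome 14, 70890120 to 70979838, plus strand), was at 4.93, 5.17 and 4.81 log2 CPM in young and 3.69, 3.99 and 3.97 in old ad libitum mice (log2 change -1.08, SE 0.20, adjusted p = 0.0264). Tdo2, itself a granule marker, was at 2.66, 3.32 and 2.94 against 1.88, 1.11 and 1.05 (-1.84, SE 0.37, adjusted p = 0.0305), on only 5 to 72 UMIs per mouse. Gabarapl2, an autophagy protein of the Atg8 family, was at 5.75, 5.82 and 5.35 against 4.97, 4.72 and 4.84 (-0.83, SE 0.15). No old ad libitum value reached a young one in any of these 3 genes, again by the condition for naming.

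Of the other falling genes, Chac2, which breaks down glutathione, changed by -1.01 (SE 0.19), Timmdc1, an assembly factor of respiratory complex I, by -0.74 (SE 0.14), and the glycosyltransferases B3galt2 and Galnt3 by -0.84 (SE 0.15) and -0.86 (SE 0.16). Proca1 changed by -1.29, Sept1, a septin, by -0.81, Lrrc29 by -0.77, the nucleolar GTPase Gnl3 by -0.61 and the centrosomal Cep78 by -0.54. Their adjusted p lay between 0.0215 and 0.029 in edgeR. Of the 12 falling genes 8 still passed with the length trend removed, and Gnl3 (-0.35, adjusted p = 0.187), Gabarapl2 (-0.72, 0.055), Chac2 (-0.83, 0.053) and Proca1 (-1.17, 0.053) did not. At 3000 UMIs per nucleus, with the members set again from the thinned counts, Gfra2, Galnt3, Gnl3, Tdo2, Lrrc29 and Cep78 no longer passed. Those sums took in nuclei of the comparison class, so depth and the change of members cannot be told apart there. The change shrank in Gfra2 (-0.49, adjusted p = 0.212) and Tdo2 (-1.08, 0.127), and less in Galnt3 (-0.68, 0.065), Lrrc29 (-0.59, 0.052) and Gnl3 (-0.53, 0.059), while in Cep78 it was -0.58 (0.0501). Gnl3 overlaps 3 annotated genes on its own strand. In 7 of these 12 genes all 7 restricted mice lay below the young mice, as in 35 of the 69 genes called lower (50.7%) and 589 of all genes tested (4.0%), and in Gfra2 they did not (acute 5.05, 4.45 and 4.66, long-term 4.44, 4.71, 4.30 and 4.04).

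**Figure D3:**
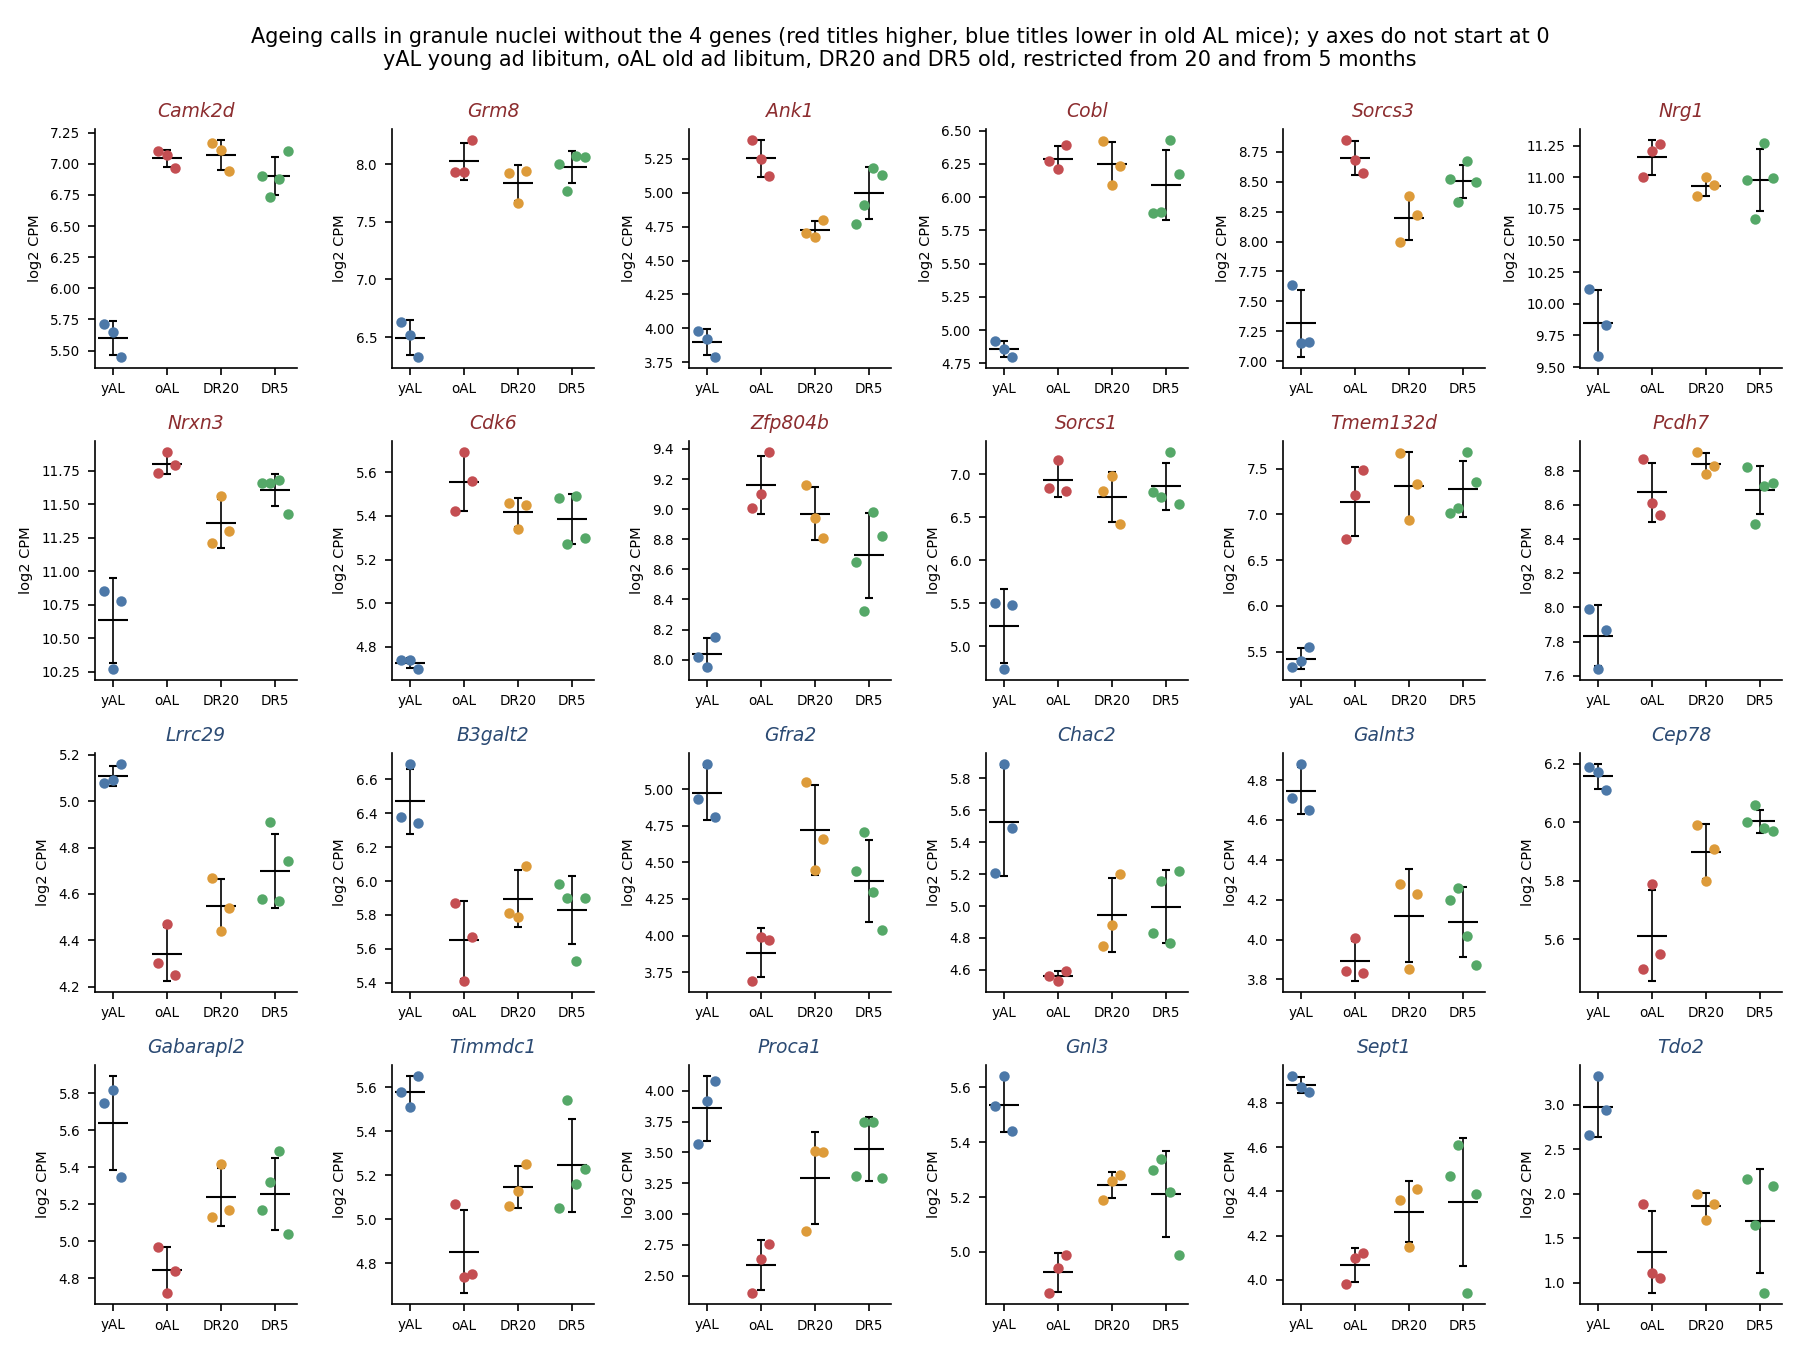
Log2 CPM in the members for the 12 named genes called higher and the 12 called lower with age, for each of 13 mice by group, with group mean ± SD (vertical axes do not start at 0). Old ad libitum and young mice do not overlap in any panel, which was a condition for naming a gene. Camk2d, for example, sits at 5.45 to 5.71 in young and at 6.97 to 7.10 in old ad libitum mice.

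Gene lists by role held the following changes, to be read against 1.27% of all genes called higher, 0.466% called lower and a median of -0.02 over all genes. Of 21 calcium and cAMP signalling enzymes, 4 rose with age and none fell (list median 0.36): Camk2d, the kinase Camk1d (0.55, adjusted p = 0.0264), the phosphodiesterase Pde10a (0.66, 0.0367) and the calcium-stimulated adenylyl cyclase Adcy8 (0.83, 0.0264). Adcy8 stood at 7.17, 6.78 and 7.09 in young and 7.96, 7.90 and 7.70 in old mice. With the length trend removed this list held 1 call, Camk2d, and its median was 0.05. Of 16 cadherins and protocadherins 5 rose (median 0.40), namely Cdh2 (0.51), Cdh4 (1.00), Cdh13 (0.75), Cdh18 (0.83) and Pcdh7. After removal of the length trend the cadherin list held no call and its median was 0.09. With a term for number 1 the enzymes held 9 calls and the cadherins 7. That fit called 1990 of all 14795 genes, 798 higher and 1192 lower. Directions within the lists were not counted there.

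Of 28 potassium channel genes 3 rose and 1 fell (median 0.20): Kcnb2 (0.54), Kcnip1 (0.80) and Kcnq3 (0.46) rose, and Kcnh5 fell from 5.01, 4.82 and 4.75 to 3.93, 4.18 and 4.24 (-0.73, adjusted p = 0.0383). These channels held 1 call with the length trend removed, and their median was 0.01. Of 15 ionotropic glutamate receptor subunits (median 0.28) 1 rose, the kainate subunit Grik4 (0.68, adjusted p = 0.0332), and the AMPA subunit Gria1 (0.28) and the NMDA subunits Grin2a (0.22) and Grin2b (0.15) did not pass. With the length trend removed this list held no call and its median was 0.06. Of 7 metabotropic receptors Grm8 alone passed (list median 0.35), and none of 12 GABA-A receptor subunits (0.26) or 15 sodium and calcium channel genes (0.23) did. Of 21 synaptic adhesion genes 2 rose, Nrxn3 and the ephrin receptor Ephb1, from 6.0, 6.20 and 6.45 to 7.46, 7.33 and 7.23 (1.11, adjusted p = 0.0077). Of 18 axon guidance genes 1 rose, the netrin receptor Unc5d (0.81, adjusted p = 0.0237). With the length trend removed the medians of these 5 lists lay between -0.05 and 0.04, with 1 call among the metabotropic receptors, 2 in synaptic adhesion and 1 in axon guidance. With a term for number 1, by contrast, there were 7 calls for potassium channels, 3 for ionotropic and 2 for metabotropic receptors, 2 for GABA-A subunits, 3 for sodium and calcium channels, 4 for synaptic adhesion and 5 for axon guidance, against 1990 calls over all genes.

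Among 13 neuropeptide and neurotrophin genes, Nrg1 and Bdnf rose (list median 0.13). Bdnf, released at mossy fibre synapses, stood at 6.40, 6.19 and 6.44 in young, 7.27, 6.95 and 6.87 in old ad libitum (0.69, adjusted p = 0.041), 6.15, 6.66 and 6.51 in acute and 6.52, 6.46, 6.80 and 6.87 in long-term restricted mice. All acute mice lay below all old ad libitum mice, though the change (-0.58, unadjusted p = 0.002) did not pass adjustment. Of 10 tested fasting and FoxO genes, the receptor Igf1r (0.72, adjusted p = 0.030) and the stress sensor Sesn3 (0.61, adjusted p = 0.030) rose (median 0.44). Srebf2, the activator of sterol synthesis genes, was the single call among 16 sterol genes (0.74, adjusted p = 0.0342; median 0.26). With the length trend removed these 3 lists held 1, 0 and 0 calls, at medians of 0.34, 0.28 and 0.29. With a term for number 1 they held 5, 5 and 1, against 1990 of 14795 over all genes.

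Lists tied to neuronal activity, time of day and stress had no call in this fit. None of 13 immediate early genes passed (median 0.04; Homer1, a postsynaptic scaffold, at 6.33, 6.38 and 6.67 in young and 6.73, 6.69 and 6.5 in old mice), and none of 16 clock genes (0.17), 12 glucocorticoid response genes (0.29) or 15 mTOR and autophagy genes (0.12) did. The list medians of 12 heat shock genes (-0.31), 21 oxidative phosphorylation genes (-0.51) and 20 cytosolic ribosomal protein genes (-0.39) were below 0 without a call. Removal of the length trend gave these 3 lists medians of -0.17, -0.19 and 0.00, and the immediate early, clock, glucocorticoid and mTOR lists -0.04, 0.17, 0.10 and -0.05. With a term for number 1, which called 1990 of all 14795 genes, the clock, heat shock and oxidative phosphorylation lists held 3 calls each. There were 2 in mTOR and autophagy and 1 among the ribosomal proteins, and none among the immediate early and glucocorticoid genes. Of the 9 granule markers outside the rule, Maml2 rose (0.54) and Tdo2 fell, and of 6 immature neuron genes tested none passed (median -0.58). Of the position lists, Gsg1l rose (0.83, 1 of 2 dorsal genes) and none of 4 ventral genes passed. Gsg1l (adjusted p = 0.097) and Maml2 (0.310) did not pass with the length trend removed. In the fit with a term for number 1 the granule markers held 5 calls, the dorsal genes 2, and the ventral and immature neuron genes 0.

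Lists of marker genes of other cells had median changes away from 0 with age in these sums. The summed levels of the glial lists overlapped between young and old ad libitum mice. None of 6 oligodendrocyte genes passed, yet all 6 had a positive change (list median 1.39), with a summed level of 275 to 426 CPM in young and 347 to 802 in old ad libitum mice. All 5 oligodendrocyte precursor genes had a positive change too (median 0.59), and none passed. Astrocyte genes (5, median 1.13) summed to 645 to 749 CPM in young and 462 to 1192 in old mice, the highest being old replicate 1, and microglial genes (5, median -0.84) to 51.5 to 226 and 41.7 to 55.7 CPM. Of 5 genes listed for CA3 neurons, Nectin3 (0.74) and Grik4 rose, with sums of 633 to 755 and 801 to 961 CPM, and neither passed with the length trend removed (adjusted p = 0.127 and 0.095; list median from 0.68 to 0.38). With a term for number 1 the precursor, microglial, mossy cell and inhibitory lists held 1 call each and the CA3 list 2. Over all genes that fit called 1990 of 14795. The oligodendrocyte, astrocyte, CA1 and endothelial lists held 0. The part of these marker genes in the changes of other genes was not tested.

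**Figure D4:**
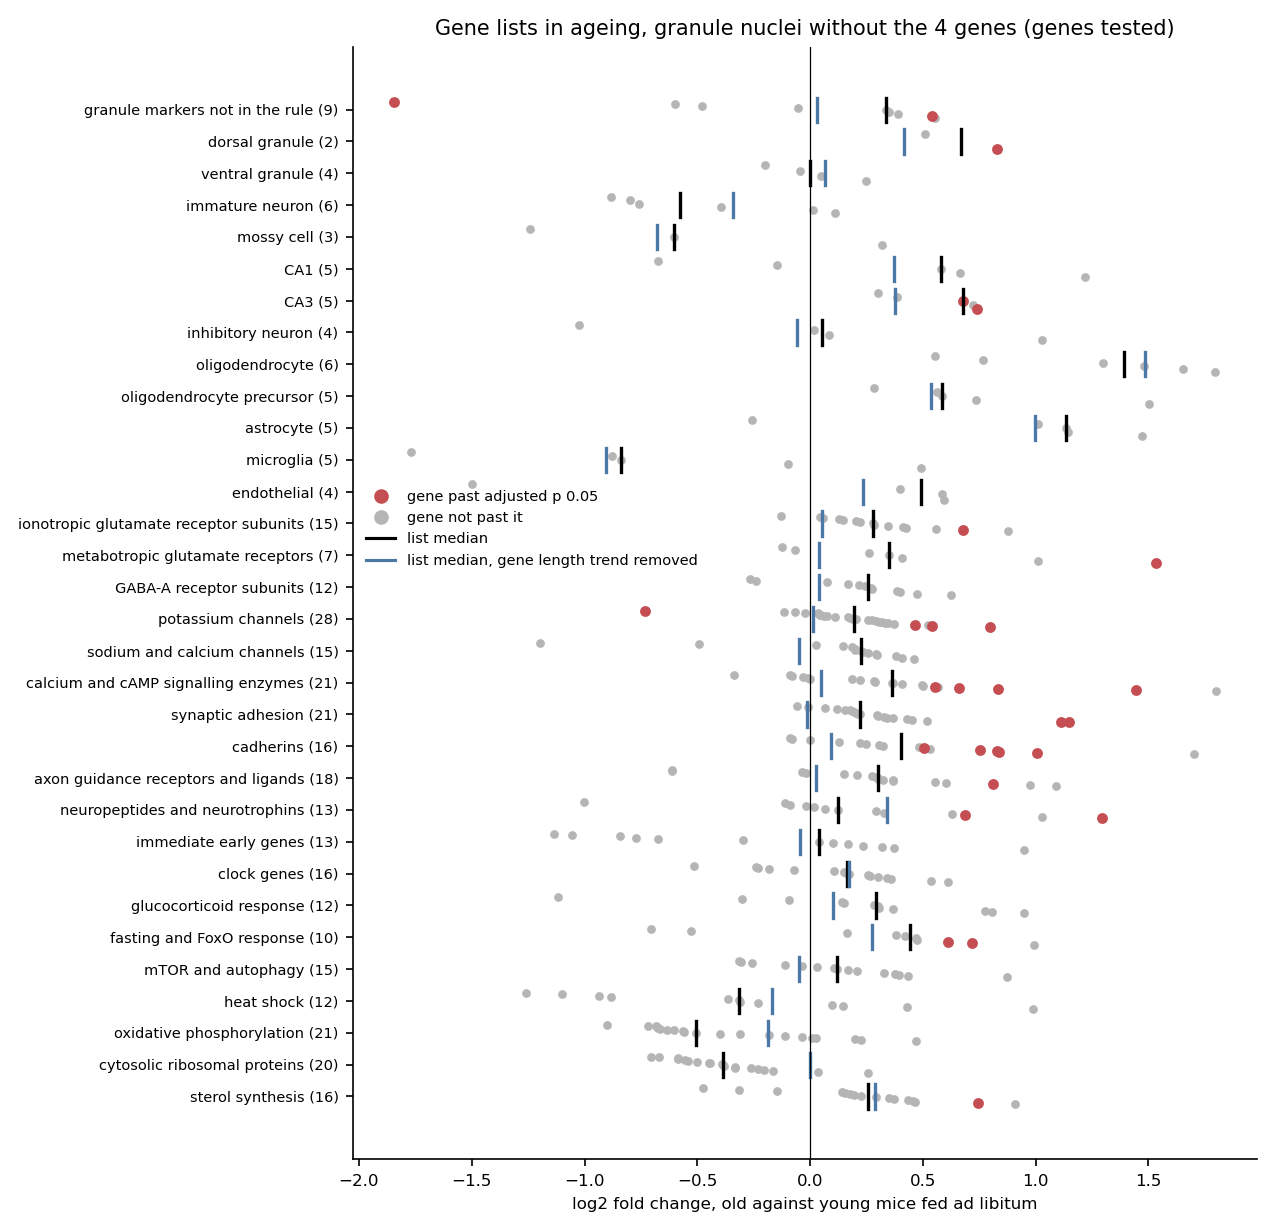
Log2 change with age (old minus young ad libitum, horizontal axis) of every tested gene in the gene lists (vertical axis). Grey points did not pass and red points passed an adjusted p of 0.05, black bars are list medians, and blue bars are medians after removal of the length trend. Most neuronal lists sit to the right of 0 (cadherins 0.40) and closer to it with the trend removed (0.09).

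Neither form of restriction gave a call in the members in edgeR as fitted above, and acute restriction gave a few in other fits. For long-term restriction against old ad libitum mice 0 of 14795 genes (0%) passed (579 at an unadjusted p under 0.05, 0 calls in DESeq2), and groups did not overlap in 5.76% of genes. For acute restriction 0 passed (715 at an unadjusted p under 0.05, smallest adjusted p = 0.207), with 12.3% not overlapping, whereas 12 passed in DESeq2, 8 in edgeR with a term for number 1, and 1 each without the libraries numbered 1 and without doublets. For long-term against acute restriction 0 passed (253 unadjusted, 0 in DESeq2), with 3.2%. The first 2 comparisons share the 3 old ad libitum mice. No gene of any list passed in them in the edgeR fit.

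The genes with the smallest p are given as values. Under acute restriction Oacyl stood at 2.40, 2.35 and 2.32 log2 CPM against 3.57, 3.67 and 4.07 in old ad libitum mice (-1.49, SE 0.25, adjusted p = 0.207). It passed with a term for number 1 (adjusted p = 0.038 in edgeR) and in DESeq2 (adjusted p = 0.0014), and in the other alternatives did not pass (highest adjusted p = 0.988). Long-term restricted mice stood at 3.18, 2.96, 3.49 and 3.58. Serpini1, the neuronal protease inhibitor neuroserpin, stood at 6.35, 6.15 and 6.03 under acute and 6.02, 5.86, 6.14 and 5.90 under long-term restriction, against 5.12, 5.56 and 5.42 (0.79 and 0.59; adjusted p = 0.298 and 1.0). All restricted mice were above all old ad libitum mice in this gene. Junos (-0.71), Zmiz1os1 (-0.77) and Catspere2 (-0.59) completed the acute set. The 5 genes of this set passed in DESeq2 (adjusted p between 0.0014 and 0.026). All 5 overlap other annotated genes, Junos, Zmiz1os1, Catspere2 and Serpini1 on their own strand and Oacyl on the opposite one.

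Under long-term restriction Tmem132c had the smallest p (-1.80, -0.46 and -0.25 against 1.07, 1.45, 2.32 and 1.51, change 2.67, adjusted p = 1.0), on 0 to 27 UMIs per mouse. Olfm3 (0.85), Rps25 (-0.79), a ribosomal protein, and Catspere2 (-0.49) followed. Between long-term and acute restriction the smallest p belonged to Ccdc171 (0.58), Oacyl (1.00), Wnt10b (-2.31, 0 to 28 UMIs per mouse), Trim17 (0.67) and Acan (-1.08). Of 20 ribosomal protein genes all had a negative change under long-term restriction (median -0.42) and under acute restriction (median -0.27), against medians of 0.00 and -0.01 over all genes, and none passed. Astrocyte genes had medians of -0.99 and -1.23, and oligodendrocyte genes of -0.47 and -0.16. The astrocyte values were set against an old ad libitum group in which replicate 1 stood apart, with Slc1a3 at 8.35 log2 CPM against 6.24 and 6.08 in the other 2 mice, and the astrocyte sums were 462 to 1192 CPM in that group, 612 to 671 under acute and 467 to 686 under long-term restriction.

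Whether ageing acted alike in both classes was tested with an interaction of class and group on 26 sums, with the mouse as a block. For ageing, 116 of 15521 genes (0.747%) passed, 25 with a higher and 91 with a lower change in the members than in the comparison class, and DESeq2 gave 66. At 3000 UMIs per nucleus, with both classes set again from the thinned counts, 19 of 13400 passed, 8 of them among the 116. All 116 kept their sign, 84 had an unadjusted p under 0.05, and the median size of the difference went from 0.41 to 0.26. The members were the shallower class and were chosen by counts of 0 at each nucleus's own depth. Their median UMIs did not overlap between young and old ad libitum mice. At full depth, a shift in which nuclei gave 0 counts and a change in expression within a class cannot be told apart. At 3000 UMIs they took in nuclei of the comparison class, so depth and this change of members cannot be told apart there. The part of depth in the interaction was not tested further.

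For Matn2, the matrix protein matrilin 2, the log2 difference between members and comparison class was -0.43, -0.35 and -0.43 in the young mice and -1.11, -1.13 and -1.02 in the old ad libitum mice (interaction -0.71, SE 0.09, adjusted p = 2.1e-05 in edgeR). Acute and long-term restricted mice had mean differences of -0.79 and -1.01. Adamts17, a secreted metalloprotease, went from -0.42, -0.41 and -0.47 to -1.04, -0.94 and -1.08 (-0.60, SE 0.07, adjusted p = 2.1e-05). Gfra2 went from -0.68, -0.36 and -0.68 to -2.11, -1.53 and -1.28 (-0.99, SE 0.14, adjusted p = 0.0002), and while it fell with age in the members its change in the comparison class was 0.01 (adjusted p = 0.963). At 3000 UMIs none of the 3 passed (adjusted p = 0.327, 0.057 and 0.509).

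Of the other named genes, Col25a1 and Trf passed both at full depth and at 3000 UMIs with the classes set again. Col25a1, a transmembrane collagen, went from 0.08, 0.17 and 0.08 to -0.51, -0.34 and -0.31 (-0.51, SE 0.07, adjusted p = 0.00015; at 3000 UMIs -0.37, adjusted p = 0.0035). Trf, transferrin, went from 0.15, 0.24 and 0.12 to 1.04, 1.39 and 1.88 (1.4, SE 0.21, adjusted p = 0.00067; at 3000 UMIs 1.39, adjusted p = 0.023). In the brain Trf is chiefly an oligodendrocyte gene, and the 6 oligodendrocyte markers summed to 347 to 802 CPM in the members and 367 to 453 in the comparison class of old ad libitum mice, against 275 to 426 and 283 to 385 in young mice. Their part in the Trf value was not tested. Mdga1 (-0.91), Rasgrf2 (-0.46) and Nkain3 (-0.35) completed the 8, with no old ad libitum value overlapping a young one. The 8 were picked by smallest adjusted p, and the share of all genes without such overlap was not counted.

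**Figure D5:**
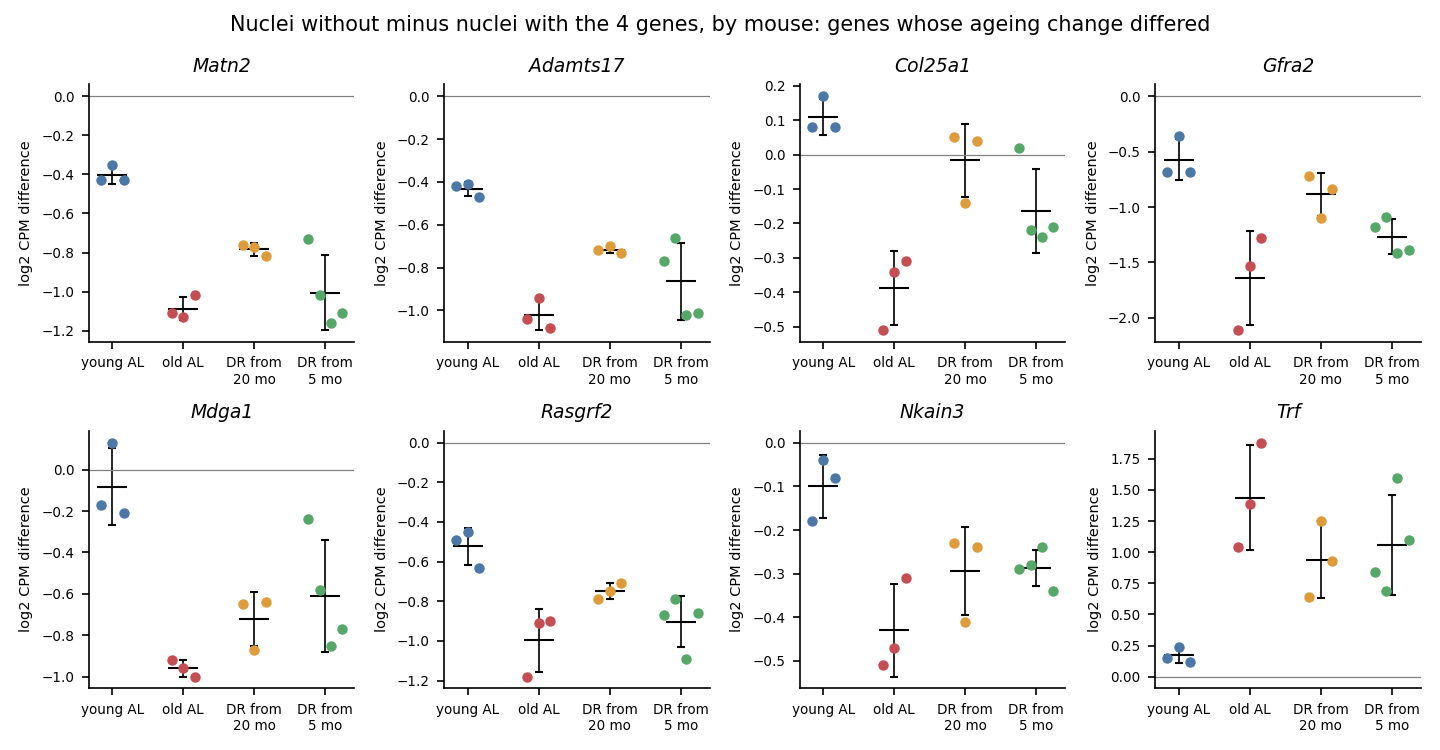
Difference in log2 CPM between granule nuclei without and with Dsp, Lct, Npnt or Stra6 UMIs (vertical axis) by group for the 8 named genes whose change with age differed between the classes. Points are mice and bars are group means ± SD. In Matn2 the young mice sit at -0.43 to -0.35 and the old ad libitum mice at -1.13 to -1.02.

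Differences between the classes under restriction were few. For long-term restriction 5 genes (0.0322%) passed, and 0 at 3000 UMIs. Slco1a4, an organic anion transporter known from brain endothelium, had an interaction of -4.30 (adjusted p = 0.0015) on 0 to 27 UMIs per mouse in the members and 0 to 30 in the comparison class, and Col11a1 (1.79), Cntnap5c (0.75) and Zfp536 (-0.34) also passed. For acute restriction 1 gene (0.00644%) passed, Zfp536, a zinc finger protein: its difference between classes was 0.50, 0.71 and 0.73 in old ad libitum mice and 0.09, 0.34 and 0.12 under acute restriction (-0.46, adjusted p = 0.00025). At 3000 UMIs it did not pass (-0.30, adjusted p = 0.266), and the 4 genes that passed there were others. Between long-term and acute restriction none of 15521 passed (0%; 566 at an unadjusted p under 0.05, 0 in DESeq2).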

How the data were processed

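The authors deposited UMI counts per gene and barcode (32285 genes), made with Cell Ranger 4.0.0 per the file headers and on mm10 per the submitters' processing notes. The counting of introns and strand is not given in the sources used here. Nuclei were sorted after Hoechst staining, per the labels' protocols.

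Barcodes were kept at 500 or more genes and no more than 5% mitochondrial UMIs (105427 of 105759). Scrublet scores (scanpy 1.11.5) marked the highest 0.8% per 1000 barcodes in each library as doublets, 7386 in all, which were removed only in an alternative. Counts of member nuclei were summed per mouse and tested with edgeR 4.0.16 (TMM, filterByExpr, robust quasi-likelihood fits over 13 mice, R 4.3.3), after dropping the rule's own genes. Adjustment followed Benjamini and Hochberg, and genes with an adjusted p under 0.05 were called. Log2 CPM used a prior count of 2. Shares were compared with exact permutation tests (scipy 1.17.1). Gene spans came from GENCODE M21 (GRCm38). Thinning drew 3000 UMIs per nucleus without replacement and left out shallower nuclei. In the gene tests and shares at 3000 UMIs, members were set again by counts of 0 of the 4 genes after thinning. The immature neuron, variation and class difference descriptions kept the classes set at full depth. The scripts were tested on simulated data.

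Named genes were the 12 with the smallest adjusted p in each direction among called genes with groups that did not overlap and the same sign with number 1 as a term, the 5 of smallest p where nothing was called, and up to 8 per interaction, leaving out predicted genes. The oligodendrocyte-type nuclei (6 markers at least 20 per 10000 UMIs, granule genes under 8) and the minimum of 300 UMIs in the comparison of the classes were set after seeing the data. The members, the gene lists and the tests were chosen with earlier results of these data known. DESeq2 1.42.0, other normalization and filters, a replicate block, depth, length and single libraries were tried as alternatives. P-values measure the spread between the 13 libraries, 1 per mouse, and intervals cover counting error only.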

Additional observations from a re-analysis of the deposited data

Results flagged for a closer look

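The share of granule nuclei without the 4 transcripts was 39.2% in long-term restriction replicate 1 and 47.2% to 48.8% in the other long-term mice, a gap of 0.833 of the group's range. In the same group Nrxn3 stood at 11.43 log2 CPM in replicate 4 and at 11.66 to 11.68 in the other 3, a gap of 0.9 of the range. Chance sets off this measure in about 1 in 20 groups.

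The change with age differed between the members and the comparison class by -0.707 in Matn2, -0.602 in Adamts17, -0.506 in Col25a1, -0.986 in Gfra2, -0.912 in Mdga1, -0.465 in Rasgrf2, -0.352 in Nkain3 and 1.4 in Trf, each on the log2 scale and each past an adjusted p of 0.05 in the interaction test of edgeR. Under long-term restriction the difference between classes was -4.302 in Slco1a4, 1.785 in Col11a1, 0.749 in Cntnap5c and -0.337 in Zfp536, and under acute restriction -0.465 in Zfp536. At 3000 UMIs per nucleus Col25a1 and Trf passed again among these genes, and Slco1a4 had too few UMIs to be tested. Depth moved with age, so in the ageing values class membership and expression cannot be told apart.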

How the results depend on the processing

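For single named genes, 1092 of 1229 alternatives over 52 results kept their side of the threshold, 131 lost the call, 6 gained one and none reversed. Ageing gave 257 genes, and 1070 in DESeq2, 1990 with a term for number 1, 1883 without the 4 libraries numbered 1, 1402 with a replicate block, 2 with median UMIs as covariate, 61 with the length trend removed, 16 when only the 2 groups were fitted, 169 among nuclei of at least 5000 UMIs and 10 to 925 when single libraries were left out. Acute restriction gave 0, and 12 in DESeq2, 8 with the number 1 term, 1 without the libraries numbered 1 and 1 without doublets. Long-term restriction and long-term against acute restriction gave 0 throughout. The cause was not tested in these cases.

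The ageing interaction gave 116 genes, and 66 in DESeq2, 310 without a filter, 76 with a replicate block, 19 at 3000 UMIs and 22 to 148 without single libraries. The long-term interaction gave 5, and 67 without a filter, 12 with the block, 2 without doublets, 0 at 3000 UMIs, 10 without the libraries numbered 1 (added after seeing the data) and 2 to 13 without single libraries. For the acute interaction (1 gene) these were 63 without a filter, 2 without doublets, 4 others at 3000 UMIs and 1 to 5 without single libraries, and for long-term against acute restriction (0 genes) 14, 1 without doublets, 3 without the libraries numbered 1 and 0 to 2 without single libraries.

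The share difference with age (-3.01 points) was 4.84 at 3000 UMIs, 2.70 among nuclei of at least 5000 UMIs and -6.70 to 2.37 without single libraries. For long-term restriction (5.53) it was 2.02 at 3000 UMIs and 1.53 to 8.66 without single libraries, and for acute restriction (6.78) 2.40 at 3000 UMIs, 2.09 without the libraries numbered 1 and 2.78 to 10.9 without single libraries. That between long-term and acute restriction (-1.25) was 0.058 at 5000 UMIs, 1.64 without the libraries numbered 1 and -5.34 to 2.15 without single libraries. All old against young (1.24) was 6.37 at 3000 UMIs, -0.51 without the libraries numbered 1 and -2.46 to 6.61 without single libraries. The immature share difference was -0.167 unthinned, -0.327 with 2 genes required, 0.0 without doublets and -0.026 to 0.036 without single libraries.

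Deviations from the group means correlated at r = 0.196 to 0.707 in the 6 pairs of libraries numbered 1. For number 2 they ran from -0.101 to 0.284 (6 pairs), for number 3 from -0.05 to 0.344 (3 pairs), and number 4 gave 0.029 (1 pair). The 47 pairs of different numbers ran from -0.574 to 0.561. The replicate numbers were not taken as pairs. Depth limits the sparse genes: the 4 transcripts of the rule gave few UMIs per nucleus, and Tdo2, Slco1a4, Wnt10b and Tmem132c rest on few UMIs per mouse.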
